A study of Homo sapiens with 6 samples.

Results

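The expression of 10 cardiac transcription factors was followed: NKX2-5, GATA4, GATA6, TBX5, TBX20, MEF2A, MEF2C, HAND1, HAND2 and IRX4. They were taken by gene symbol from the 21134 genes of the series table. The choice was made with earlier results of these data known. All 10 were present and passed the expression filter. RNA was sequenced from cultured cardiomyocytes that the labels call hiPSC-CMs and assign to H9, which is known as an embryonic stem cell line. The control group (2 libraries) was untreated, the alcohol group (2 libraries) received 100 mM alcohol for 24 h, and the co-treated group (2 libraries) received 100 mM alcohol with 1 μM losartan, a blocker of the angiotensin II type 1 receptor, for 24 h. All groups came from 1 cell line, no group received losartan alone, and no source used here says whether the 2 libraries of a group came from separate cultures, so the p-values measure only the spread between these libraries. The comparison of alcohol with control addressed what alcohol did to the cells, the comparison of co-treated with alcohol addressed what losartan changed in its presence, and co-treated and control differ by both agents.

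The 10 factors bind DNA at heart genes and form a network in which several members bind one another and regulate one another's genes. The homeobox factor NKX2-5, the zinc finger factors GATA4 and GATA6 and the T-box factor TBX5 act early in the making of heart muscle and remain active in the cardiomyocyte. The MEF2 factors drive muscle genes, the HAND factors pattern the ventricles and IRX4 marks ventricular muscle. Because the cells were measured in bulk, fewer cells of a type and less RNA per cell cannot be told apart.

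Promoter windows were found in RefSeq (GRCh38.p14) for 8 of the 10 genes; NKX2-5 and GATA4 had none. The sequences of 3 genes are shown as a description, and no expression result depends on them. They are HAND2, whose antisense neighbour starts close by, IRX4 and TBX20. IRX4 had the largest fitted difference of the 10, and TBX20 went the other way. Each sequence is written 5′ to 3′ on the strand of the gene, and capitals mark matches to a GATA motif.
HAND2, chr4:173530230-173530479, minus strand: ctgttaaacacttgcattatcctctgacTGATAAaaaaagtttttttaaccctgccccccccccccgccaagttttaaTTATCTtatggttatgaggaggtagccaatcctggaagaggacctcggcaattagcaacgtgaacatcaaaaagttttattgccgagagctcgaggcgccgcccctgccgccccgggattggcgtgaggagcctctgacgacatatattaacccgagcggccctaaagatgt
IRX4, chr5:1887237-1887429, minus strand: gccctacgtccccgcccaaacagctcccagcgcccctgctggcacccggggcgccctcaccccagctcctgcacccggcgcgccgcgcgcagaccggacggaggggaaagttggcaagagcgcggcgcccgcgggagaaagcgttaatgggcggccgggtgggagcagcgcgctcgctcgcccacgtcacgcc
TBX20, chr7:35254148-35254350, minus strand: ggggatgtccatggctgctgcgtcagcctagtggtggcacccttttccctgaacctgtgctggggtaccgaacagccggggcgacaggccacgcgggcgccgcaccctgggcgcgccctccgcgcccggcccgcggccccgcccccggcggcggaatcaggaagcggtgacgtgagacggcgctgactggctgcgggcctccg
The 3 stretches lie upstream of the annotated transcripts of their own gene, the one of HAND2 within the span of HAND2-AS1, and hold 250, 193 and 203 bases. The HAND2 stretch ends 1 base before the start site and holds the GATA motif 2 times, as TGATAA at 222 and as TTATCT at 172 bases before the start. The motif was searched on both strands as AGATAA or TGATAA, and 14.6% of all 35116 promoter windows of 250 bases held it. The G and C content of the stretch was 49.6% for HAND2, 75.6% for IRX4 and 74.9% for TBX20. Over the 19 windows of the 8 genes, the GATA motif was found in 4 (HAND2 and MEF2C), beside 14.6% of all windows. The MEF2 motif was found in 3 (MEF2A, MEF2C and TBX5; 2.8% of all windows) and the T-box motif AGGTGT in 3 (MEF2C; 9.57%). A TATA box (TATATA or TATAAA) was found in 1 (HAND1; 12.8%) and the HAND motif CATCTG in 1 (IRX4; 12.2%). The NKX2-5 motif TNAAGTG was found in 0 (8.73%). A match to these letters is a description of the sequence and was not tested for binding.

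All 10 factors were expressed in every library, and their order hardly differed between groups. Levels between genes are given as FPKM, the authors' fragment count per length of transcript and per reads sequenced. TBX20 was the highest in every group with a control mean of 148 FPKM, followed by NKX2-5 and HAND2. GATA4 and MEF2A came next and overlapped in the control and alcohol groups, so neither can be placed above the other there. GATA6, IRX4, TBX5, MEF2C and HAND1 followed in that order in all 3 groups. Every other pair of neighbours was apart within its group, but some only just, so their order is not firm. In the co-treated group the lowest IRX4 value was 22.42 FPKM and the highest of TBX5 22.3. The same values there were 80.71 and 80.06 for HAND2 and MEF2A and 98.79 and 97.49 for NKX2-5 and HAND2. In control they were 147.58 and 146.02 for TBX20 and NKX2-5. Over the 6 libraries TBX20 lay at percentile 97.9 and HAND1 at percentile 48.7 of the genes tested. The highest level of a factor was between 1.21 times (TBX5) and 2.07 times (IRX4) its lowest level.

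**Figure D1:**
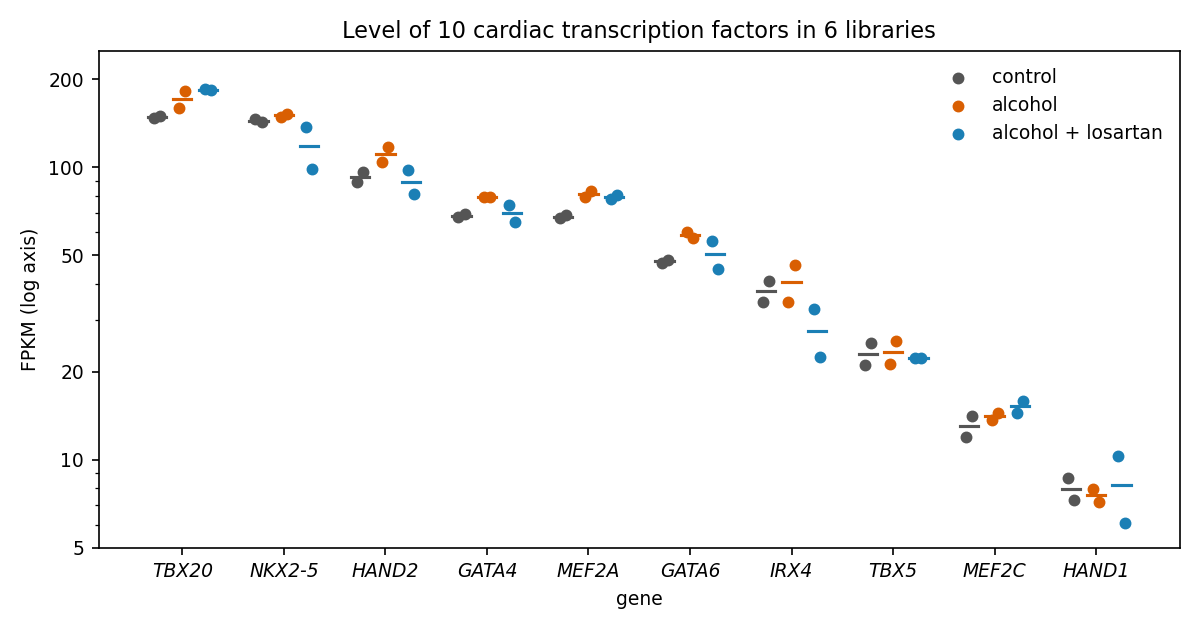
FPKM of each factor (log axis) in the 6 libraries; points are libraries, short bars are means of 2 libraries, and genes are ordered by the control mean. TBX20 and NKX2-5 sit at the top and HAND1 at the bottom in every group, and IRX4, NKX2-5 and HAND1 are spread most within the co-treated group.

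No factor passed the test in any of the 3 comparisons, which was edgeR's quasi-likelihood test with an adjusted p under 0.05 over 14926 genes tested. Of all genes tested, 0.067% were called in alcohol against control, 0.0134% in co-treated against alcohol and 0.362% in co-treated against control. At an unadjusted p under 0.05 the same test gave 0 of the 10 factors in alcohol against control (11.0% of all genes, 5.27% higher and 5.78% lower). It gave 3 in co-treated against alcohol (5.55% of all genes), IRX4, HAND2 and NKX2-5, all of them lower (2.71%, beside 2.84% higher). It gave 3 in co-treated against control, with TBX20 higher (6.26% of all genes) and IRX4 and NKX2-5 lower (6.37%). By DESeq2 and limma no factor passed either. The comparisons share libraries, so they are not independent of each other.

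The median fitted log2 fold change of the 10 factors was 0.13 in alcohol against control, −0.14 in co-treated against alcohol and −0.01 in co-treated against control, beside medians of all genes of −0.003, 0.002 and −0.002. For the 7344 genes tested whose FPKM lay within the range of the factors, the median size of the log2 fold change, whatever its sign, was 0.14, 0.11 and 0.15, and for the 10 factors it was 0.14, 0.15 and 0.14. In alcohol against control, 8 of 10 fitted values lay above 0 (49.4% of all genes). In co-treated against alcohol 3 of 10 did (50.3%), and in co-treated against control 4 of 10 (49.8%). FPKM did not overlap between alcohol and control for 6 factors that were higher with alcohol (24.7% of all genes) and for 0 that were lower (17.7%). Between co-treated and alcohol it did not overlap for 7 factors, of which 5 were lower (14.3%) and 2 were higher (18.0%). Between co-treated and control it did not overlap for 5 factors, of which 3 were higher (27.1%) and 2 were lower (16.3%). The summed FPKM of the 10 factors was 640 and 661 in control, 709 and 765 in alcohol and 709 and 619 in co-treated libraries.

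**Figure D2:**
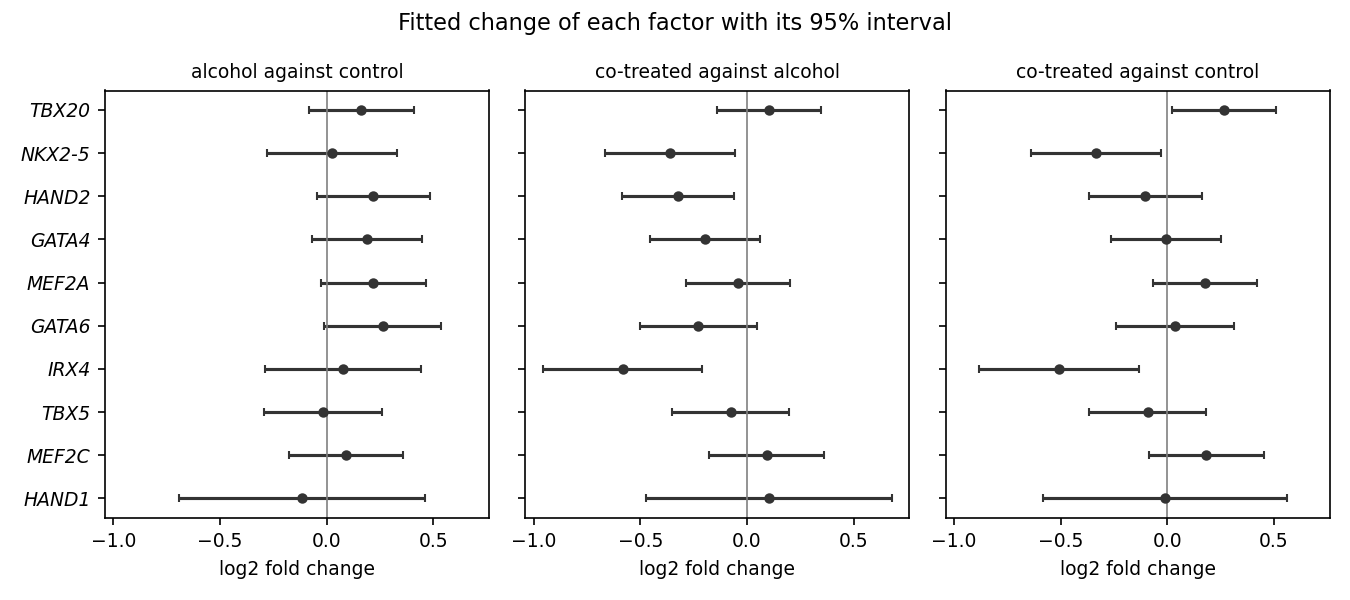
Fitted log2 fold change of each factor (point) with its 95% interval (bar) in the 3 comparisons; the vertical line marks 0. Intervals that leave out 0 belong to NKX2-5, HAND2 and IRX4 in co-treated against alcohol and to TBX20, NKX2-5 and IRX4 in co-treated against control, before adjustment for the number of genes.

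NKX2-5, the homeobox factor of the early heart field, had 146 and 142 FPKM in the control libraries, 149 and 151 with alcohol and 137 and 98.8 with co-treatment. Control and alcohol libraries lay close together, with the alcohol libraries just above, and both co-treated libraries lay below all others, the second far below. The log2 fold change of alcohol against control was 0.03 (adjusted p = 0.969). The log2 fold change of co-treated against alcohol was −0.36 ± 0.14 (SE), with a 95% interval from −0.67 to −0.06 and an adjusted p of 0.857. Against control it was −0.33 (adjusted p = 0.343).

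GATA4 and GATA6 are zinc finger factors that recognise the same motif. GATA4 had 67.6 and 69.0 FPKM in the control libraries, 79.4 and 79.1 with alcohol and 74.2 and 65.1 with co-treatment. GATA6 had 47.1 and 48.1 FPKM in the control libraries, 59.9 and 57.4 with alcohol and 56.1 and 44.8 with co-treatment. For both genes the 2 alcohol libraries were the highest of the 6, and the co-treated libraries lay on either side of the controls. In alcohol against control the log2 fold change was 0.19 for GATA4 (adjusted p = 0.615) and 0.26 ± 0.13 (SE) for GATA6 (adjusted p = 0.472). The interval of GATA6 ran from −0.01 to 0.54. In co-treated against alcohol the values were −0.19 for GATA4 and −0.23 for GATA6, both with an adjusted p of 0.915. In co-treated against control they were −0.01 and 0.04. The ratio of GATA4 to GATA6 stayed between 1.32 and 1.45 over the 6 libraries.

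The T-box factors TBX5 and TBX20 differed in level and in pattern. TBX20, a regulator of chamber muscle, had 148 and 149 FPKM in the control libraries, 159 and 183 with alcohol and 186 and 183 with co-treatment. All 4 libraries with alcohol lay above the controls. Its log2 fold change was 0.16 in alcohol against control (adjusted p = 0.660) and 0.10 in co-treated against alcohol (adjusted p = 0.954). In co-treated against control it was 0.27, with a 95% interval from 0.02 to 0.51 and an adjusted p of 0.345. TBX5, which acts in the left ventricle and atria and in the conduction system, had 21.1 and 25.0 FPKM in the control libraries, 21.3 and 25.6 with alcohol and 22.3 and 22.2 with co-treatment. The groups overlapped, and the 2 libraries of the control and alcohol groups differed more than the group means did. The fitted log2 fold changes of TBX5 were −0.02, −0.08 and −0.09 in the 3 comparisons (adjusted p = 0.975, 0.962 and 0.821). The ratio of TBX20 to TBX5 was 6.98 and 5.97 in control, 7.50 and 7.15 in alcohol and 8.32 and 8.23 in co-treated libraries.

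MEF2A and MEF2C are MADS box factors of muscle. MEF2A had 66.8 and 68.6 FPKM in the control libraries, 79.2 and 83.0 with alcohol and 78.1 and 80.1 with co-treatment. The 4 libraries with alcohol lay together above the controls, and the 2 treated groups overlapped. The log2 fold change was 0.22 in alcohol against control (adjusted p = 0.511), −0.04 in co-treated against alcohol and 0.18 in co-treated against control (adjusted p = 0.569). MEF2C had 11.95 and 14.1 FPKM in the control libraries, 13.7 and 14.5 with alcohol and 14.5 and 15.9 with co-treatment. The alcohol libraries overlapped with the controls, and the co-treated libraries were the highest, by a small margin over alcohol. Its log2 fold changes were 0.09, 0.09 and 0.18 (adjusted p = 0.851, 0.962 and 0.597). MEF2A stayed between 4.86 and 5.79 times the level of MEF2C.

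The HAND factors are basic helix-loop-helix factors. HAND2 had 89.0 and 96.2 FPKM in the control libraries, 104 and 118 with alcohol and 97.5 and 80.7 with co-treatment. The alcohol libraries were the highest, and the co-treated libraries lay on either side of the controls. Its log2 fold change was 0.22 in alcohol against control (adjusted p = 0.550). In co-treated against alcohol it was −0.32, with a 95% interval from −0.59 to −0.06 and an adjusted p of 0.857, and in co-treated against control it was −0.10 (adjusted p = 0.785). HAND1 had 8.65 and 7.30 FPKM in the control libraries, 7.96 and 7.15 with alcohol and 10.3 and 6.06 with co-treatment. The highest and the lowest library of HAND1 were both co-treated, so the groups overlapped throughout. Its counts were between 53 and 88 a library, where counting error alone is 13.7% at the lowest, and its log2 fold changes were −0.12, 0.10 and −0.01.

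IRX4, a homeobox factor of ventricular muscle, had 34.6 and 40.9 FPKM in the control libraries, 34.6 and 46.5 with alcohol and 32.7 and 22.4 with co-treatment. Control and alcohol overlapped, and both co-treated libraries lay below all others, the second by a wide margin. The log2 fold change was 0.08 in alcohol against control (adjusted p = 0.918). In co-treated against alcohol it was −0.58 ± 0.17 (SE), with a 95% interval from −0.96 to −0.21. That was the smallest unadjusted p of a factor, 0.005 by edgeR, while the adjusted p was 0.760. Against control the value was −0.51 (adjusted p = 0.242). The expected count of IRX4 was between 262 and 538 a library.

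The size of these values rested on the second co-treated library. In it, NKX2-5, IRX4, HAND2, GATA4, GATA6 and HAND1 were each lower than in the first, by a ratio of first to second of 1.14 (GATA4) to 1.70 (HAND1), while the ratio was 1.00 for TBX5, 1.01 for TBX20, 0.976 for MEF2A and 0.909 for MEF2C. Without the second co-treated library the log2 fold change of co-treated against alcohol was −0.35 for IRX4, −0.15 for NKX2-5 and −0.21 for HAND2. Without the first co-treated library the values were −0.87, −0.60 and −0.45. Each of these fits left 1 co-treated library, so only the size of the values is given. Against control, the values of IRX4 and NKX2-5 were −0.27 and −0.13 without the second and −0.79 and −0.58 without the first co-treated library. IRX4 in alcohol against control was 0.25 without the first alcohol library and −0.11 without the second. In co-treated against alcohol, IRX4 was −0.40 without the second alcohol library. TBX20 in co-treated against control stayed between 0.26 and 0.28 with any 1 library left out.

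**Figure D3:**
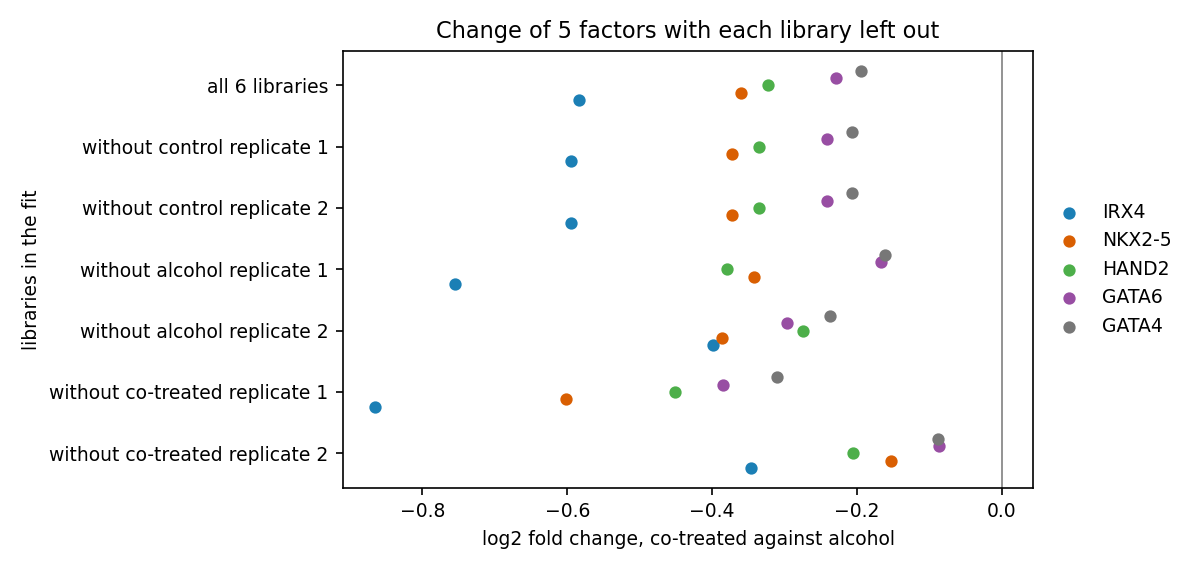
Fitted log2 fold change of co-treated against alcohol for 5 factors, with all 6 libraries and with each library left out in turn. The 5 factors shown are those with the lowest fitted values in this comparison, so that all points lie below 0 follows largely from the choice. Not shown are TBX20, MEF2C and HAND1 (0.10, 0.09 and 0.10 with all 6 libraries) and MEF2A and TBX5 (−0.04 and −0.08). With a library left out, HAND1 ran from −0.31 to 0.43 and TBX5 from −0.17 to 0.0187. The values of IRX4, NKX2-5, HAND2, GATA6 and GATA4 are nearest 0 without the second co-treated library and farthest from 0 without the first.

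Markers of the cells were present throughout. All 12 cardiomyocyte markers were measured, with a summed level of 32550 to 34185 FPKM in control, 23534 to 32828 in alcohol and 27480 to 29374 in co-treated libraries, and the lowest sum was that of the second alcohol library. Fibroblast markers summed to 428 to 471 FPKM in control, 487 to 520 in alcohol and 473 to 523 in co-treated libraries. Smooth muscle markers summed to 2192 to 2465, 1149 to 1970 and 1429 to 1489 FPKM, and 1 of 8, ACTA2 (named after its values were seen), was called, lower in co-treated against control (adjusted p = 0.0203). Over the 15 alternatives its adjusted p ran up to 0.353, and the call was lost with no expression filter, with limma and without the second control library or either co-treated library. The smooth muscle list includes MYOCD, which is also among the cofactors below. Within it ACTA2, TAGLN, CNN1 and DES were each at 177 FPKM or more in every library, while MYH11 had 1.71 to 4.77 FPKM. Which cells express these markers was not tested, so the sum is not a measure of smooth muscle cells. Endoderm cells also express GATA4 and GATA6. Their markers summed to 37.9 to 39.1 FPKM in control, 50.5 to 51.1 in alcohol and 48.6 to 48.9 in co-treated libraries. Of these markers, 6 of 11 were under 1 FPKM in every library. Most of the sum came from AFP, at 20.35 to 28.39 FPKM, and APOA1. APOA1 had 15.27 and 13.05 FPKM in control, 22.32 and 22.23 with alcohol and 20.02 and 16.39 with co-treatment. ALB lay between 1.05 and 2.8 FPKM. Endothelial markers summed to 6.27 to 11.3 FPKM, with 6 of 8 under 1 FPKM in every library, and pluripotency markers to 16.7 to 26.0 FPKM. The part of these markers in the values of the factors was not tested.

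Antisense genes lie beside HAND2, GATA6, TBX5 and MEF2C, and whether reads were counted by strand is not given in the sources used here, so reads of the overlapping parts cannot be told apart. HAND2 lies on chromosome 4 at 173526091 to 173530229 on the minus strand, and HAND2-AS1 at 173528600 to 173591255 on the plus strand, so that the 2 gene spans have 1630 bases in common in RefSeq. HAND2-AS1 had 22.2 and 23.0 FPKM in the control libraries, 29.1 and 28.3 with alcohol and 34.2 and 34.3 with co-treatment. The 3 groups were apart, with control lowest and co-treated highest. Its log2 fold change was 0.31 in alcohol against control, 0.25 in co-treated against alcohol and 0.55 ± 0.18 (SE) in co-treated against control (adjusted p = 0.213), so it did not pass the test. The ratio of HAND2 to HAND2-AS1 was 4.02 and 4.18 in control, 3.58 and 4.15 in alcohol and 2.85 and 2.35 in co-treated libraries.

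TBX5-AS1, which shares 248 bases with TBX5 on chromosome 12, had 7.43 and 8.75 FPKM in the control libraries, 7.97 and 9.27 with alcohol and 9.78 and 9.96 with co-treatment. The ratio of TBX5 to TBX5-AS1 was 2.84 and 2.85 in control, 2.67 and 2.76 in alcohol and 2.28 and 2.23 in co-treated libraries. The co-treated libraries were the highest for the antisense gene and the lowest for the ratio, which was computed as a description with no test. GATA6-AS1 does not overlap GATA6 in RefSeq, but in GENCODE the 2 gene spans have 436 bases in common. GATA6-AS1 had 53.0 and 43.1 FPKM in the control libraries, 65.9 and 48.5 with alcohol and 64.3 and 55.8 with co-treatment. In co-treated against control its log2 fold change was 0.27 and that of TBX5-AS1 was 0.24 (adjusted p = 0.550 and 0.577). MEF2C-AS1 had between 2 and 9 counts a library and was not tested, and 3 other antisense genes of the list were not found by symbol.

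**Figure D4:**
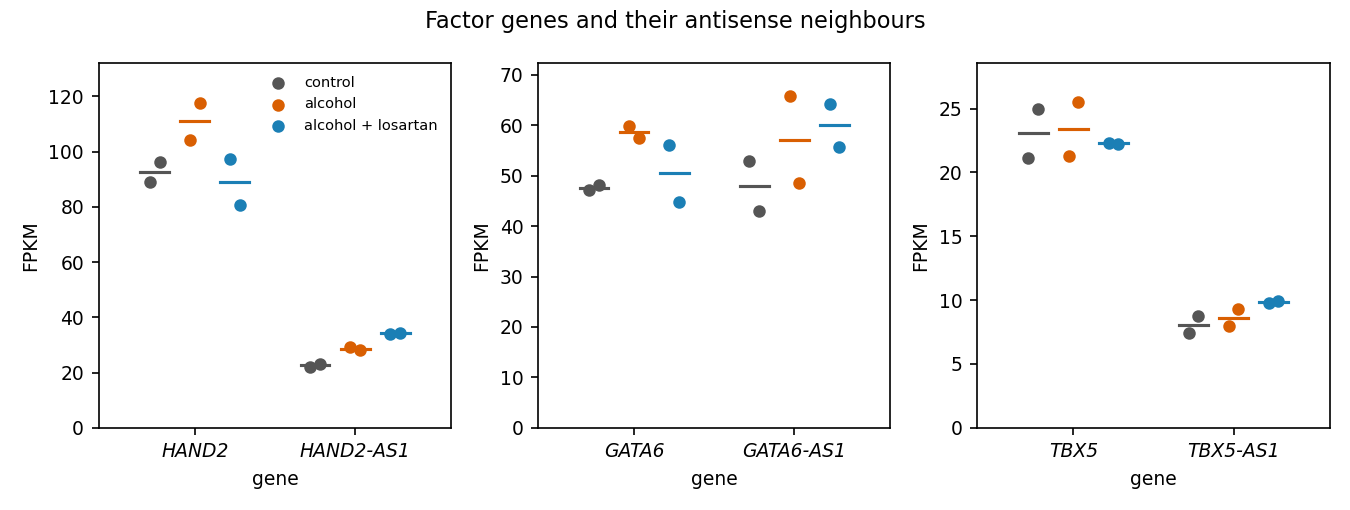
FPKM of HAND2, GATA6 and TBX5 and of the antisense gene beside each in the 6 libraries; points are libraries, bars are means of 2, and axes start at 0. HAND2-AS1 is between 22.2 and 34.3 FPKM with the 3 groups apart, while HAND2 is highest in the alcohol libraries.

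A pair of ratios, out of more that were computed, was looked at after the values had been seen. The ratio of NKX2-5 to TBX20 was 0.989 and 0.955 in control, 0.935 and 0.829 in alcohol and 0.740 and 0.540 in co-treated libraries. The 3 groups did not overlap, but NKX2-5 was low and TBX20 high in the co-treated libraries. That this ratio was lowest there therefore follows largely from the choice of the pair. The ratio of IRX4 to HEY2, a repressor that is also found in ventricular muscle, was 1.36 and 1.39 in control, 1.13 and 1.10 in alcohol and 1.11 and 0.792 in co-treated libraries. HEY2 itself had 25.4 and 29.4 FPKM in the control libraries, 30.6 and 42.1 with alcohol and 29.4 and 28.3 with co-treatment. Among the other ratios of IRX4, those to IRX1 and IRX3 overlapped between all groups. The ratio to IRX2 was highest with alcohol and overlapped between control and co-treated libraries.

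Other genes of the network were read from lists. Of 29 other cardiac transcription factors 23 were tested, and none was called in any comparison by edgeR or limma, while DESeq2 called 1, TBX18, in co-treated against control. Without the first alcohol library edgeR called ESRRG higher and HOPX lower in alcohol against control and HOPX higher in co-treated against alcohol. That fit left 1 alcohol library. HOPX had 74.4 and 53.9 FPKM in the control libraries, 63.9 and 19.9 with alcohol and 58.95 and 52.0 with co-treatment. Only the second alcohol library stood apart. At an unadjusted p under 0.05, 4 of the 23 were higher and 0 lower in alcohol against control (5.27% and 5.78% of all genes), 1 was higher and 3 lower in co-treated against alcohol (2.84% and 2.71%), and 4 were higher and 3 lower in co-treated against control (6.26% and 6.37%). Their median log2 fold changes were 0.18, −0.12 and −0.02. TBX18, a T-box factor of the epicardium and sinus node, had 9.14 and 6.87 FPKM in the control libraries, 9.98 and 9.92 with alcohol and 12.3 and 15.0 with co-treatment, a log2 fold change of 0.72 with an adjusted p of 0.0787 by edgeR and 0.046 by DESeq2. ESRRG and PROX1 had log2 fold changes of 0.48 and 0.40 in alcohol against control (adjusted p = 0.244 and 0.286). IRX1, a relative of IRX4, had 3.43 and 3.11 FPKM in the control libraries, 3.97 and 3.31 with alcohol and 1.45 and 2.04 with co-treatment. Like IRX4 it was lowest in the co-treated libraries, with a log2 fold change of −1.06 in co-treated against alcohol (adjusted p = 0.836). Its counts were between 13.15 and 37.15 a library, where counting error alone is 27.6% at the lowest. The other relatives in this list, IRX2, IRX3 and IRX5, overlapped between the alcohol and co-treated groups, and IRX5 was highest in a co-treated library (2.27 FPKM). HOPX and TEAD1 had, with HEY2, the highest means of this list over the 6 libraries, at 64.1 and 39.9 FPKM on average in control.

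All 22 cofactors of these factors were tested, and none was called by edgeR, DESeq2 or limma. At an unadjusted p under 0.05, 4 were higher and 0 lower in alcohol against control (5.27% and 5.78% of all genes), 0 higher and 4 lower in co-treated against alcohol (2.84% and 2.71%), and 2 higher and 6 lower in co-treated against control (6.26% and 6.37%). The medians were 0.06, −0.16 and −0.03. CITED2, which bridges the coactivators p300 and CBP to transcription factors, had the highest mean of the list over the 6 libraries, with 71.7 and 64.0 FPKM in the control libraries, 86.6 and 96.5 with alcohol and 67.6 and 66.1 with co-treatment. The alcohol libraries stood above all others, as for GATA4, GATA6 and HAND2. Its log2 fold change was 0.39 in alcohol against control (adjusted p = 0.226) and −0.46 in co-treated against alcohol (adjusted p = 0.587). In co-treated against control, TCF3, a partner of the HAND factors, had −0.58, SMARCD3, a subunit of the BAF chromatin remodeller, −0.42 and KAT2B, an acetyltransferase, 0.43 (adjusted p = 0.129, 0.135 and 0.223). MYOCD and YAP1 had log2 fold changes between −0.18 and −0.01.

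Of 28 genes known as targets of these factors in heart muscle, all were tested and 1 was called. ANKRD1, a stress-responsive sarcomere gene, had 1551 and 1062 FPKM in the control libraries, 1114 and 524 with alcohol and 455 and 480 with co-treatment. It was lower in co-treated against control by edgeR, with a log2 fold change of −1.53 ± 0.29 (SE) and an adjusted p of 0.041. By DESeq2 the adjusted p was 0.136. The call was lost under 7 of the 15 alternatives. They were DESeq2, no expression filter, both limma settings, and leaving out the first control library or either co-treated library. Without the first control library the fold change was −1.22, and without the first or second co-treated library it was −1.48 and −1.59. The natriuretic peptide genes NPPA and NPPB had log2 fold changes of −0.70 and −1.90 in the same comparison (adjusted p = 0.113 and 0.0732) by edgeR. DESeq2 gave 0.00626 for NPPA and 0.269 for NPPB, and it also called NPPA lower in alcohol against control (adjusted p = 0.013) and MYL3, a gene outside the naming rule, lower in co-treated against control. The adjusted p of NPPB was 0.000132 without the first and 0.000177 without the second alcohol library, and 0.489 without the second co-treated library. In alcohol against control, CASQ2, a calcium-binding protein of the sarcoplasmic reticulum, had −0.98 (adjusted p = 0.147). With all libraries edgeR called 0 of the 28 targets in alcohol against control. The alcohol libraries differed widely for some targets, with NPPB at 1079 and 301 FPKM and ACTC1 at 2178 and 889, and little for others, such as TNNT2 at 3497 and 3308. Calls among the targets therefore depended on which alcohol library was left out, and each such fit rests on 1 alcohol library. At an unadjusted p under 0.05, 7 targets were lower and 0 higher in alcohol against control (5.78% and 5.27% of all genes), 4 lower and 0 higher in co-treated against alcohol (2.71% and 2.84%), and 11 lower and 3 higher in co-treated against control (6.37% and 6.26%). MYL7, MYL4 and TNNT2, the highest of the list by the mean over the 6 libraries, had log2 fold changes of −0.52, −0.23 and −0.18 in co-treated against control. The median of the 28 was −0.02, −0.03 and −0.21, beside −0.01 for the 10 factors in the last of these comparisons.

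**Figure D5:**
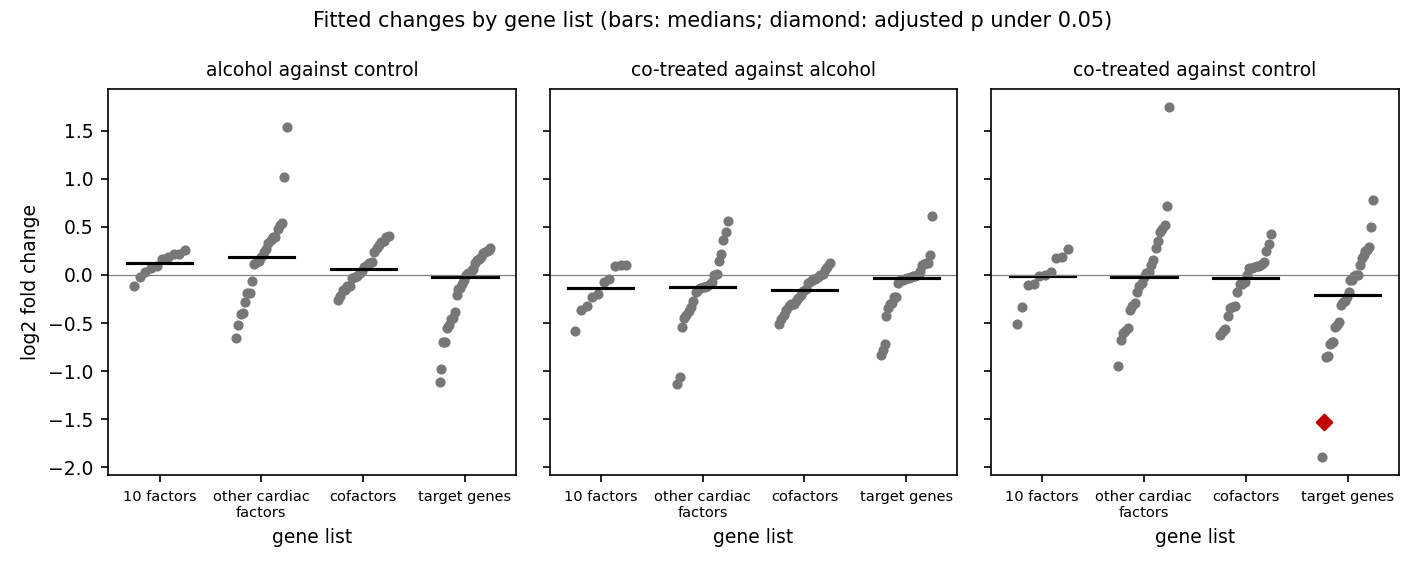
Fitted log2 fold change of each tested gene in 4 lists (10 factors, 23 other cardiac factors, 22 cofactors, 28 target genes) in the 3 comparisons; grey points are genes, black bars are medians, and the diamond marks a gene with an adjusted p under 0.05. The 10 factors lie between −0.58 and 0.27 in all comparisons, and the 1 diamond is ANKRD1 at −1.53.

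For each factor the gene with the most similar pattern was found by Pearson r of log2 CPM over the 6 libraries among 11443 genes, which share the libraries and their depth. It was TIAF1 for NKX2-5 (r = 0.990), MRPS11 for GATA4 (0.986), MIDN for GATA6 (0.989), TTC7A for TBX5 (0.986) and ZNF34 for TBX20 (0.996). It was SDHD for MEF2A (0.995), THYN1 for MEF2C (0.995), POLR3D for HAND1 (0.976), GABBR1 for HAND2 (0.997) and BCAT2 for IRX4 (0.993). With 6 libraries between 13 and 84 genes had r over 0.95 with each factor, so these names describe the 6 values and carry no test. BCAT2 had 27.3 and 29.7 FPKM in the control libraries, 28.1 and 31.5 with alcohol and 27.7 and 24.2 with co-treatment, a narrower range than that of IRX4.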

How the data were processed

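The authors sequenced RNA of 6 libraries and deposited for each an expected count per gene, which need not be whole (33.9% of values above 0 were not), and the FPKM. The submitters' processing notes name HISAT2 2.0.4, Bowtie2 2.2.5, RSEM 1.2.12 and hg38. Expected counts summed to 4898287 to 5051448 a library, so 3 counts are 0.594 to 0.612 CPM; this floor covers counting error only. No column was left without a sample.

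Groups follow the treatment that the labels give. Expected counts were rounded and tested with edgeR 4.0.16 in R 4.3.3 (quasi-likelihood F test, two-sided, TMM, filterByExpr, all 6 libraries in 1 fit), with Benjamini-Hochberg adjustment at 0.05 over 14926 genes. CPM used a prior count of 2. With 2 libraries a group no exact permutation test of a single value can go below p = 0.333. The test was checked on simulated data. The labels name no batch. Alternatives were DESeq2 1.42.0, limma 3.58.1 on log2(FPKM + 1) and log2(FPKM + 0.1), other scalings and filters, a replicate block, only the groups compared, and each library left out.

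The 10 factors and the lists were chosen with earlier results of these data known. From each other list the text names genes with an adjusted p under 0.05, the 4 with the smallest p and the 3 with the highest FPKM. MRTFA and MRTFB were found by NCBI Gene number under older symbols. Positions are from RefSeq (GRCh38.p14). Promoter stretches were cut to lie outside the annotated transcripts of their own gene.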

Additional observations from a re-analysis of the deposited data

How the results depend on the processing

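No factor was called by edgeR under any of the 15 alternatives, by DESeq2 or by limma. Of 30 fitted values of the factors (10 genes, 3 comparisons), 20 kept their direction under all 15 alternatives and 10 changed sign under at least 1; the smallest adjusted p of any factor was 0.155 (NKX2-5, co-treated against control). GATA4 in co-treated against control was 0.0423 with total counts only and 0.0244 and 0.0247 with limma on log2(FPKM + 1) and log2(FPKM + 0.1); TBX5 in alcohol against control was 0.0237, 0.0196 and 0.0203 under the same 3 settings; HAND1 in co-treated against control was 0.0369 with total counts only. With 1 library left out, alcohol against control ran from −0.11 to 0.11 for TBX5, from −0.23 to 0.0404 for HAND1 and from −0.11 to 0.25 for IRX4. Co-treated against alcohol ran from −0.17 to 0.0187 for TBX5 and from −0.31 to 0.43 for HAND1. Co-treated against control ran from −0.12 to 0.10 for GATA4, from −0.12 to 0.18 for GATA6, from −0.19 to 0.0191 for TBX5, from −0.43 to 0.31 for HAND1 and from −0.23 to 0.0141 for HAND2. The causes were not tested.

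Counts of all genes called moved more. For alcohol against control, co-treated against alcohol and co-treated against control, edgeR called 10, 2 and 54 genes, DESeq2 72, 5 and 128, edgeR without an expression filter 2, 1 and 15, and edgeR on only the groups compared 3, 4 and 154. With total counts only, alcohol against control gave 22 genes. With at least 10 counts in every library alcohol against control gave 26 genes and co-treated against alcohol gave 0 (778 at an unadjusted p under 0.05). Limma called 0 (1545 at an unadjusted p under 0.05), 1 and 2 genes on log2(FPKM + 1), and 2 in alcohol against control and 3 in co-treated against control on log2(FPKM + 0.1). With 1 library left out the counts ran from 1 to 213, from 1 to 22 and from 1 to 162; the highest were without the first alcohol library. The replicate block gave 48, 5 and 136 genes and 0 factors. Deviations of same-numbered libraries correlated at 0.114 (control and alcohol), −0.016 (control and co-treated) and 0.041 (alcohol and co-treated) over 14926 genes, and at 0.383, 0.000497 and 0.0816 over the 6513 genes with log2 CPM of 5 or more. The numbers were not taken as pairs, since the correlation was not over 0.1 for each pair of groups; control and alcohol libraries of the same number did deviate together. Of 15 values of other named genes 10 kept their direction and side of the threshold. Depth limits HAND1 most, with 53 to 88 counts.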
